A study of Mus musculus with 6 samples.

Results

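The expression of 10 genes was examined in RNA-seq of mouse tailbuds, and these were 4 genes of the notochord and its precursors (Noto, Chrd, Nog and Foxj1) and 6 genes of hedgehog reception and response (Ptch1, Smo, Gli1, Gli2, Gli3 and Hhip). They were picked by name among the 54134 genes of the count table, and all 10 were found there once. Tailbuds, meaning the tissue caudal to the last somite, came from C57BL/6 embryos at E10.5, with 1 library per embryo. The 4 wildtype embryos carried no transgene. The 2 Cdx2P:Nr6a1 embryos carried a transgene in which the Cdx2 promoter, active in the caudal end of the embryo, drives the nuclear receptor Nr6a1. These were transient transgenics from pronuclear injection, so each embryo was an integration event of its own and there was no stable line. The comparison asks whether the midline and its hedgehog signal differed in tailbuds in which Nr6a1 was kept on. In whole tailbuds, fewer cells of a type and less RNA per cell cannot be told apart.

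The notochord is the rod of axial mesoderm that runs under the neural tube. At the tail tip it grows from a pool of progenitors that express the homeobox gene Noto. The notochord secretes Sonic hedgehog, which patterns the floor of the neural tube and the ventral somite, together with the BMP antagonists chordin (Chrd) and noggin (Nog). Foxj1 is the master transcription factor of motile cilia, which the node and its descendants bear. Hedgehog ligand binds the receptor Patched (Ptch1) and thereby frees Smoothened (Smo) to act in the primary cilium. The signal ends on the zinc finger factors Gli1, Gli2 and Gli3, of which Gli2 acts mainly as an activator and Gli3 mainly as a repressor. Gli1, Ptch1 and Hhip, which encodes a membrane protein that binds the ligand, are themselves target genes and serve as a readout of the pathway.

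The 10 genes had the same start, end and strand in the deposited table as in the GENCODE M21 annotation of GRCm38 (mm10), and all 10 are protein-coding. Of the notochord genes, Noto lies at chr6:85423886-85428877 on the plus strand, Chrd at chr16:20733127-20742384 on the plus strand, Nog at chr11:89300638-89302332 on the minus strand and Foxj1 at chr11:116330704-116335399 on the minus strand. Of the hedgehog genes, Ptch1 lies at chr13:63508328-63573598 on the minus strand, Smo at chr6:29735503-29761365 on the plus strand, Gli1 at chr10:127329882-127341974 on the minus strand, Gli2 at chr1:118834132-119053619 on the minus strand, Gli3 at chr13:15463235-15730026 on the plus strand and Hhip at chr8:79965851-80058006 on the minus strand. Exons of 4 of these genes overlap exons of another gene. The overlap is 239 bp with Thpo for Chrd, 327 bp with Arhgap9 and Gm47200 for Gli1, 188 bp with Gm6556 for Gli3 and 175 bp with Gm27820 for Hhip, which is between 1.9% and 6.5% of the exon length. All these partners lie on the opposite strand, and whether the counting used strand is not given in the sources used here.

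RefSeq promoter windows (GRCm38.p6, 250 bases before to 50 bases after the annotated start) were at hand for 7 of the 10 genes, without Nog, Foxj1 and Gli1. Shown here 5′ to 3′ are the windows of Noto, the most specific marker of the notochord progenitors, and of Ptch1 and Hhip, the target genes with the highest and the lowest level per length in these tailbuds. They lie at chr6:85423636-85423935 (plus strand), chr13:63565686-63565985 (minus strand) and chr8:80057959-80058258 (minus strand). Capitals mark the letters GACCACC, the core of the site that Gli factors bind.
Noto: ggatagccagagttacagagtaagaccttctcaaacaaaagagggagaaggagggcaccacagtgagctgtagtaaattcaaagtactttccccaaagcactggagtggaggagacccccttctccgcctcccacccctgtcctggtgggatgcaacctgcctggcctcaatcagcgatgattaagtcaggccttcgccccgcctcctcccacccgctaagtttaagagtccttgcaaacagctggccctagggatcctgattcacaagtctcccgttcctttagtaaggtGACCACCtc
Ptch1: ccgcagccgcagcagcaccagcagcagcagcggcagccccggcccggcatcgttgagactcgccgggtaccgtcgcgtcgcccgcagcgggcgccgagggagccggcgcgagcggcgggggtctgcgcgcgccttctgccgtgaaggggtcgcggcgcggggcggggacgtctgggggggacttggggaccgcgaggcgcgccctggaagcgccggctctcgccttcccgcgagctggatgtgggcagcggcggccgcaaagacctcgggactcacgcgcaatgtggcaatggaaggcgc
Hhip: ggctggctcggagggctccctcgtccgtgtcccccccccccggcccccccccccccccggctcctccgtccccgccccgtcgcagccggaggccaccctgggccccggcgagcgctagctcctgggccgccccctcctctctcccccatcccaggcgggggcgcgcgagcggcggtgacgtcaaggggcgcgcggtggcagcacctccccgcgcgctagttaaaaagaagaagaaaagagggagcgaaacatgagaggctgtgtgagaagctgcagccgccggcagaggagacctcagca
On either strand, GACCACC was present in 2.8% of the 32851 RefSeq windows and in 1 of the 7 windows of these genes, that of Noto, where it begins 41 bases after the start. The longer consensus GACCACCCA, which contains the core, was present in 0.253% of all windows and in 0 of the 7. The windows differed in composition, with 6 CpG dinucleotides and 54.0% G and C in Noto, 47 CpG and 76.3% in Ptch1, and 30 CpG and 73.7% in Hhip. The RefSeq start of Ptch1 lies 7863 bases inside the 5′ end of the gene as GENCODE draws it, so its window belongs to 1 of several starts of the gene. A match of letters is a description of the window and not a binding site.

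Library totals lay between 44073460 and 67183802 counts, lowest in Cdx2P:Nr6a1 replicate 1 and highest in Cdx2P:Nr6a1 replicate 2. Levels are given as CPM, the counts of a gene per 1000000 counts of the library after scaling by the TMM method. The transgenic labels held for Nr6a1 itself, which was at 3.95, 5.18, 5.54 and 6.93 CPM in wildtype and at 23.3 and 33.9 CPM in Cdx2P:Nr6a1 (log2 fold change 2.41, SE 0.20, edgeR adjusted p = 0.00132). These counts do not separate the transgene from the endogenous gene. The tissue label held for T (Brachyury), at 1101 ± 94.7 CPM (SD, n = 4) in wildtype and 973 ± 118 CPM (SD, n = 2) in Cdx2P:Nr6a1, with a log2 fold change of -0.18 (SE 0.09, adjusted p = 0.564) that moved to -0.31 when Cdx2P:Nr6a1 replicate 1 was left out and to -0.06 when replicate 2 was. Libraries differed in blood content, and the sum of the 5 erythroid markers ranged from 8130 to 19773 CPM in wildtype, highest in replicate 1, and from 9761 to 13590 CPM in Cdx2P:Nr6a1.

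No gene of the 10 was called as changed. The count model of edgeR (quasi-likelihood test, Benjamini-Hochberg adjusted over all 12733 genes tested) called 0 of the 9 that passed the filter on low counts, where 1.59% of all genes tested were called. At an unadjusted p under 0.05 there were 2, Foxj1 and Ptch1, both higher in Cdx2P:Nr6a1, where 5.54% of all genes tested reached that level in that direction. DESeq2 and limma voom also called 0 of these genes. The tenth, Hhip, was below the filter. The 95% confidence intervals of the 9 log2 fold changes together spanned -0.30 to 0.77, and a log2 fold change of -1 or 1 lay outside each of them. The interval of each hedgehog gene tested was narrower than that of any notochord gene.

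**Figure D1:**
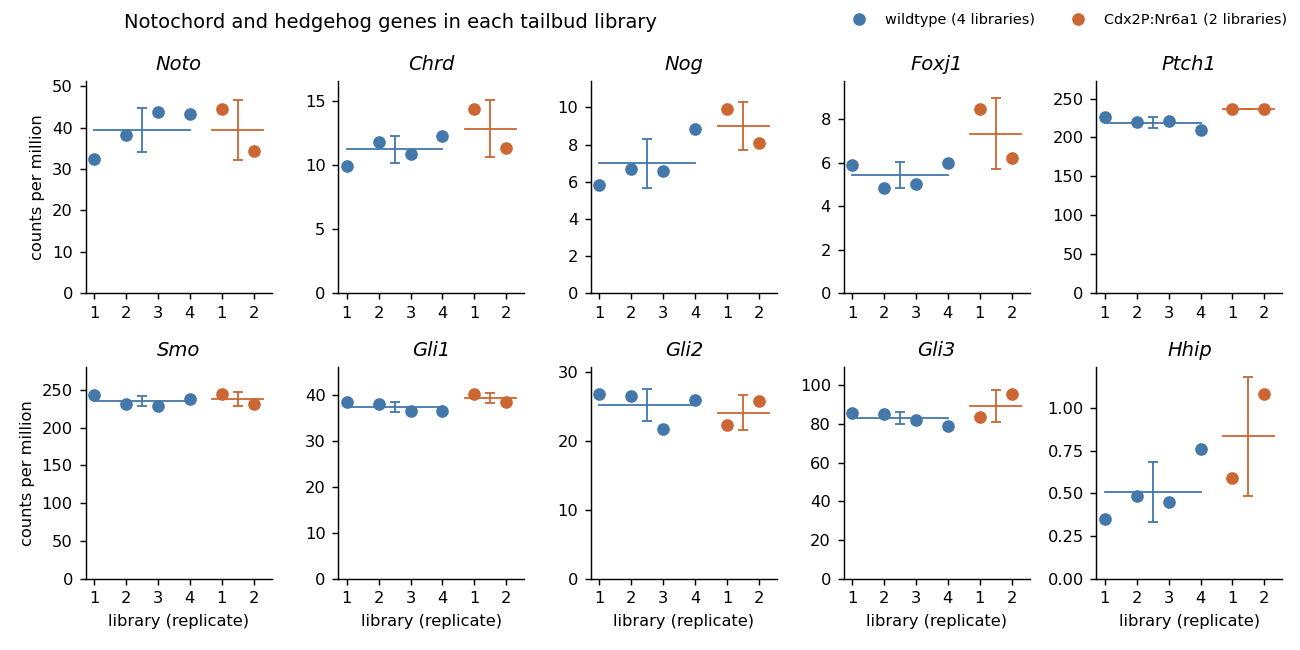
CPM (TMM-scaled) of the 10 genes in each of the 6 libraries, with 4 wildtype libraries in blue and 2 Cdx2P:Nr6a1 libraries in orange. Horizontal lines are group means and bars are SD, each vertical axis starts at 0, and both orange points lie above all blue ones for Foxj1, Ptch1 and Gli1.

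**Figure D2:**
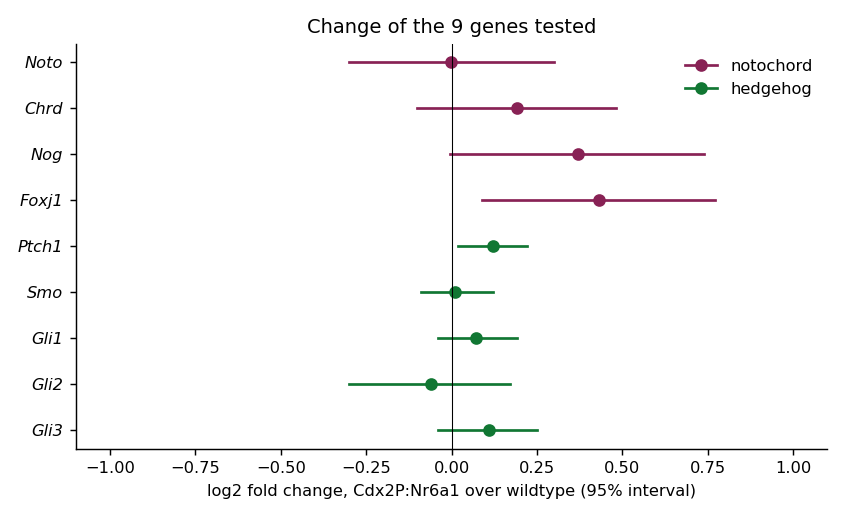
Log2 fold change of Cdx2P:Nr6a1 over wildtype with its 95% interval (edgeR) for the 9 genes tested, notochord genes in purple and hedgehog genes in green. The intervals lie between -0.30 and 0.77, and those of Foxj1 and Ptch1 do not reach 0 before adjustment for the number of genes tested.

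Among the notochord genes, Noto had close to the same mean in both groups and was variable between embryos. It was at 32.4, 38.2, 43.8 and 43.3 CPM in wildtype replicates 1 to 4, and at 44.6 and 34.3 CPM in Cdx2P:Nr6a1 replicates 1 and 2. Cdx2P:Nr6a1 replicate 1 was thus just above the wildtype range and replicate 2 near its lower end, and the groups overlapped. The log2 fold change was -0.0011 (SE 0.13, adjusted p = 0.999), with a 95% interval from 18.9% lower to 23.1% higher. The sign is not informative here, since it turned positive under some settings (library size only, 0.0051).

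Chordin, the secreted antagonist that binds BMP ligands outside the cell, was at 9.92, 11.8, 10.9 and 12.3 CPM in wildtype and at 14.4 and 11.3 CPM in Cdx2P:Nr6a1. Replicate 1 of the transgenic group was the highest of the 6 libraries and replicate 2 fell inside the wildtype range. Chrd had a log2 fold change of 0.19 (SE 0.13, adjusted p = 0.733). Without Cdx2P:Nr6a1 replicate 1 it was 0.0024 and without replicate 2 it was 0.36.

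Noggin, the second secreted BMP antagonist of the notochord, was at 5.80, 6.71, 6.59 and 8.85 CPM in wildtype and at 9.93 and 8.10 CPM in Cdx2P:Nr6a1. Wildtype replicate 4 lay between the transgenic values, so the groups overlapped at that library alone. Nog had a log2 fold change of 0.37 (SE 0.16, unadjusted p = 0.0522 and adjusted p = 0.481 in edgeR), with a 95% interval from 0.294% lower to 66.7% higher. It was 0.21 without Cdx2P:Nr6a1 replicate 1.

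Foxj1 had the highest fold change of the 9 genes tested. It was at 5.91, 4.82, 5.01 and 5.97 CPM in wildtype and at 8.49 and 6.20 CPM in Cdx2P:Nr6a1. Both transgenic libraries lay above all wildtype libraries, replicate 2 by a small margin. Foxj1 had a log2 fold change of 0.43 (SE 0.15, unadjusted p = 0.0189 and adjusted p = 0.295 in edgeR). Without Cdx2P:Nr6a1 replicate 1 it was 0.19, and without replicate 2 it was 0.65, and neither passed the test.

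Both transgenic libraries lay above all 4 wildtype libraries for 3 of the 9 genes (Foxj1, Ptch1 and Gli1), where 9.46% of all genes tested did so. The median log2 fold change was 0.28 over the 4 notochord genes and 0.07 over the 5 hedgehog genes tested, beside -0.00071 over all genes tested. All 4 notochord genes were higher in Cdx2P:Nr6a1 replicate 1 than in replicate 2, and their summed level was 77.5 and 59.9 CPM in these libraries against 54.1 to 70.4 CPM in wildtype. The median over the notochord genes was accordingly 0.10 without replicate 1 and 0.43 without replicate 2.

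Most of the hedgehog genes varied by a few percent between libraries. Ptch1, the receptor and target gene, was at 226, 219.9, 221 and 209 CPM in wildtype and at 237 CPM in both Cdx2P:Nr6a1 libraries. Its transgenic values were above the wildtype range by a few percent. The log2 fold change was 0.12 (SE 0.04, unadjusted p = 0.0278 and adjusted p = 0.359 in edgeR), which is between 1.11% and 16.3% higher by its 95% interval.

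Gli1, the most direct transcriptional readout of hedgehog signaling, was at 38.5, 38.2, 36.6 and 36.6 CPM in wildtype and at 40.2 and 38.6 CPM in Cdx2P:Nr6a1. The transgenic libraries ranked first and second of the 6, and replicate 2 exceeded the highest wildtype library only in the first decimal. Its log2 fold change was 0.07 (SE 0.05, adjusted p = 0.758), with a 95% interval from 2.92% lower to 14.0% higher. Without Cdx2P:Nr6a1 replicate 1 it was 0.04.

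Hhip, the third target gene, was detected in all libraries at a level below the filter, with 17, 27, 25 and 34 counts in wildtype and 26 and 72 counts in Cdx2P:Nr6a1. This corresponds to 0.35, 0.484, 0.449 and 0.76 CPM in wildtype and 0.588 and 1.08 CPM in Cdx2P:Nr6a1. The groups overlapped, and only Cdx2P:Nr6a1 replicate 2 stood above the wildtype range, with an exact 95% Poisson interval of 0.843 to 1.36 CPM for counting error. With no filter on low counts, the log2 fold change of Hhip was 0.74 (SE 0.32, adjusted p = 0.361).

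Smo, the transducer whose activity is set by Patched and not by its own transcription, was at 243, 231, 229 and 238 CPM in wildtype and at 244 and 231 CPM in Cdx2P:Nr6a1. The groups overlapped over nearly their whole range. Smo had a log2 fold change of 0.01 (SE 0.05, adjusted p = 0.971), with a 95% interval from 6.21% lower to 8.46% higher.

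Gli2, the main activator, was at 26.8, 26.5, 21.7 and 26.0 CPM in wildtype and at 22.3 and 25.9 CPM in Cdx2P:Nr6a1. Both transgenic values fell within the wildtype range, which was set at its lower end by replicate 3. For Gli2 the log2 fold change was -0.06 (SE 0.10, adjusted p = 0.918), and without Cdx2P:Nr6a1 replicate 1 it was 0.04.

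Gli3, the main repressor, was at 85.6, 85.4, 82.3 and 78.9 CPM in wildtype and at 83.5 and 95.4 CPM in Cdx2P:Nr6a1. Replicate 2 of the transgenic group was the highest of the 6 libraries and replicate 1 lay within the wildtype range. The log2 fold change of Gli3 was 0.11 (SE 0.06, adjusted p = 0.666). It came to 0.20 when Cdx2P:Nr6a1 replicate 1 was left out and to 0.0086 when replicate 2 was.

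The spread between wildtype embryos was itself different between the genes. The coefficient of variation over the 4 wildtype libraries was 13.4% for Noto, 9.24% for Chrd, 18.7% for Nog and 11.0% for Foxj1. It was 3.22% for Ptch1, 2.87% for Smo, 2.70% for Gli1 and 3.80% for Gli3, with 9.33% for Gli2, where the median of all genes tested was 5.84%. Each of the 4 notochord genes varied more than at least 75.3% of all genes tested, whereas Ptch1, Smo, Gli1 and Gli3 varied more than at most 26.1% of them. These ranks are over genes of all levels. The hedgehog gene Gli2 varied more than 75.8% of them, above Chrd. Hhip, which was not tested, had 34.4% in wildtype, where counting error alone would give 19.7%. Counting error alone would give between 2.22% (Noto) and 6.02% (Foxj1) for the notochord genes at these depths. Wildtype replicate 1 was the lowest of the wildtype libraries for Noto, Chrd and Nog, and it was also the library with the highest erythroid markers, whose part in this was not tested.

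Levels of different genes were compared per length of exon, as CPM per kb. In wildtype, Smo was highest at 41.9 ± 1.20 CPM per kb (SD, n = 4), followed by Noto at 24.6 ± 3.30, Ptch1 at 15.4 ± 0.496, Gli3 at 8.66 ± 0.329 and Gli1 at 7.50 ± 0.202 CPM per kb. In each of the 6 libraries these 5 genes kept that order, with no overlap of neighbours between libraries. Below them, Nog (4.12 ± 0.769), Gli2 (3.68 ± 0.343), Foxj1 (2.07 ± 0.227) and Chrd (1.80 ± 0.166 CPM per kb) overlapped each with its neighbour in the range over all 6 libraries. Hhip was far below at 0.0563 ± 0.0193 CPM per kb. Noto, a transcription factor of notochord progenitors, thus had a higher level per length in the whole tailbud than the widely used receptor Ptch1. This holds for the deposited lengths of 1602 bp for Noto and 14185 bp for Ptch1, which join all annotated exons. Ptch1 has several starts, and the order for single transcripts was not tested. In CPM, Ptch1 (219 in wildtype) was above Noto (39.4). The order per length was the same in the means of the Cdx2P:Nr6a1 libraries, at 42.2 for Smo, 24.6 for Noto, 16.7 for Ptch1, 9.33 for Gli3 and 7.89 for Gli1.

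**Figure D3:**
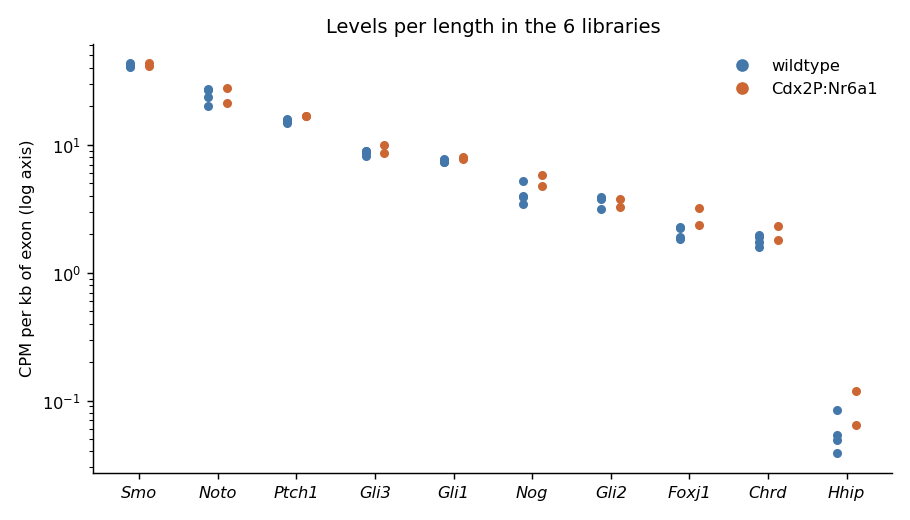
Level of the 10 genes as CPM per kb of exon, on a log axis, with 1 point per library (wildtype blue, Cdx2P:Nr6a1 orange), in the order of the wildtype means. Smo, Noto, Ptch1, Gli3 and Gli1 are separated in all 6 libraries, Nog, Gli2, Foxj1 and Chrd overlap their neighbours, and Hhip lies below 0.119 CPM per kb or at it.

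The wider notochord list held 15 genes besides these 4, of which 12 were tested, 1 was called higher and 0 were called lower, with a median log2 fold change of -0.0091. Krt18, a keratin of simple epithelia and of the notochord, was at 52.6, 47.1, 47.7 and 53.3 CPM in wildtype and 64.5 and 64.8 CPM in Cdx2P:Nr6a1, and rose by a log2 fold change of 0.37 (SE 0.06, adjusted p = 0.0264). This call was lost without wildtype replicate 2 (adjusted p = 0.0519) or replicate 3 (0.0541) and without Cdx2P:Nr6a1 replicate 1 (0.154) or replicate 2 (0.169), at log2 fold changes of 0.34 to 0.37. Its partner Krt8 (0.35, adjusted p = 0.0814) and the cartilage and notochord sheath collagen Col2a1 (0.51, adjusted p = 0.0577) missed the threshold with both transgenic libraries above all wildtype libraries. On the other side, Sox5, a factor of the notochord sheath (-0.34, adjusted p = 0.309), and the carbonic anhydrase Car3 (-0.40, adjusted p = 0.308) had both transgenic libraries below all wildtype libraries. Col2a1 was called by DESeq2 (adjusted p = 9.33e-05), as was Krt8, and by edgeR without Cdx2P:Nr6a1 replicate 1 (0.72, adjusted p = 0.0141), whereas without replicate 2 it was at 0.27 (adjusted p = 0.281). Car3 was at -0.21 without Cdx2P:Nr6a1 replicate 2 and -0.60 without replicate 1, and was called lower with no filter on low counts (adjusted p = 1.17e-05). Sox5 was at -0.20 without Cdx2P:Nr6a1 replicate 1 and -0.51 without replicate 2. Keratins also mark gut and surface epithelium, and of the 5 gut endoderm markers tested and reported here 0 were called, at summed levels of 303 to 402 CPM in wildtype and 385 to 453 CPM in Cdx2P:Nr6a1. Of the 6 surface ectoderm markers, likewise, 0 were called, and the part of these epithelia in the Krt18 result was not tested.

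Sonic hedgehog itself was not called. Shh, picked after its values were seen, was at 3.29, 5.20, 6.75 and 4.69 CPM in wildtype and at 4.86 and 4.67 CPM in Cdx2P:Nr6a1, with a log2 fold change of -0.07 (SE 0.23, adjusted p = 0.968), which turned to 0.11 without wildtype replicate 3. Foxa2, the forkhead factor of notochord and floor plate, was at 3.40, 4.72, 5.47 and 6.32 CPM in wildtype and at 5.23 and 6.90 CPM in Cdx2P:Nr6a1 (log2 fold change 0.29, SE 0.22, adjusted p = 0.786). The fold change of Foxa2 was 0.07 without Cdx2P:Nr6a1 replicate 2, 0.47 without replicate 1 and 0.15 without wildtype replicate 1. For both genes the groups overlapped, and wildtype replicate 1 was again the lowest. The interval of Shh, from 33.8% lower to 37.5% higher, was wider than that of Noto. A further 6 genes of the ventral neural tube and floor plate (Nkx2-2, Nkx2-9, Nkx6-1, Nkx6-2, Olig1 and Olig2) stayed under 1 CPM in all libraries, and 1 of them, Olig2, had 0 counts in all 6, which allows up to 0.045 to 0.068 CPM per library (3 counts, counting error only).

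Around the receptor, 1 of the 7 genes of hedgehog reception reported here passed the test. Lrp2 (megalin), a large endocytic receptor of neuroepithelium that binds Sonic hedgehog among many ligands, was at 21.0, 31.5, 23.7 and 27.1 CPM in wildtype and at 50.7 and 86.3 CPM in Cdx2P:Nr6a1. Both transgenic libraries were well above the wildtype range. The log2 fold change was 1.41 (SE 0.20, adjusted p = 0.0116), and it was 0.97 without Cdx2P:Nr6a1 replicate 2, where the call was lost (adjusted p = 0.0735), as it was with robust dispersion estimates (adjusted p = 0.117). The co-receptors Boc (0.25, adjusted p = 0.152) and Cdon (0.19, adjusted p = 0.36) had both transgenic libraries above all wildtype libraries and were not called. Mgrn1, a ubiquitin ligase, had the highest level per length of these genes at 16.3 ± 1.16 CPM per kb in wildtype and 15.9 ± 0.643 CPM per kb in Cdx2P:Nr6a1.

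Among the ligands and the genes for their release, 6 of 8 were tested and 1 was called. Scube1, whose secreted product belongs to a family that helps release lipid-bearing hedgehog from cells, was at 7.12, 7.17, 7.63 and 9.65 CPM in wildtype and at 13.8 and 20.6 CPM in Cdx2P:Nr6a1. The log2 fold change was 1.13 (SE 0.17, adjusted p = 0.016), and without Cdx2P:Nr6a1 replicate 2 it was 0.80 and no longer called (adjusted p = 0.143). Its relative Scube3, the highest of the list per length at 8.51 ± 0.771 CPM per kb in wildtype, had a log2 fold change of 0.26 (adjusted p = 0.183), and without wildtype replicate 4 it was called (adjusted p = 0.0438), as it was by DESeq2 (0.0431) and with no filter on low counts (0.00164). Both Lrp2 and Scube1 were higher in transgenic replicate 2 than in replicate 1, as were 3 neural tube markers that were called higher, namely Sox1 (1.77, adjusted p = 0.0116), Sox3 (1.26, adjusted p = 0.00714) and Hes3 (3.13, adjusted p = 0.00737). Sox1 passed the filter through the Cdx2P:Nr6a1 libraries only, at 2.94 and 5.12 CPM against 0.906 to 1.42 CPM in wildtype. Its call is thus not independent of the filter. The other tested neural tube markers, which were the most abundant, were not called, with Sox2 at 0.17 (adjusted p = 0.653) and Pax3, also a somite gene, at -0.07 (adjusted p = 0.889), and Pax3 was at 49.5 CPM in transgenic replicate 1, below all wildtype libraries. Without Cdx2P:Nr6a1 replicate 2, the calls of Sox3 (adjusted p = 0.0791) and Hes3 (0.0616) were lost, and Sox1 was below the filter. Hes3 was also not called with robust dispersion estimates (adjusted p = 0.0918). Over the 6 neural tube markers, the summed level was 89.3 to 99.9 CPM in wildtype and 100 and 141 CPM in Cdx2P:Nr6a1, and the part of neural cells in the Lrp2 and Scube1 results was not tested.

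**Figure D4:**
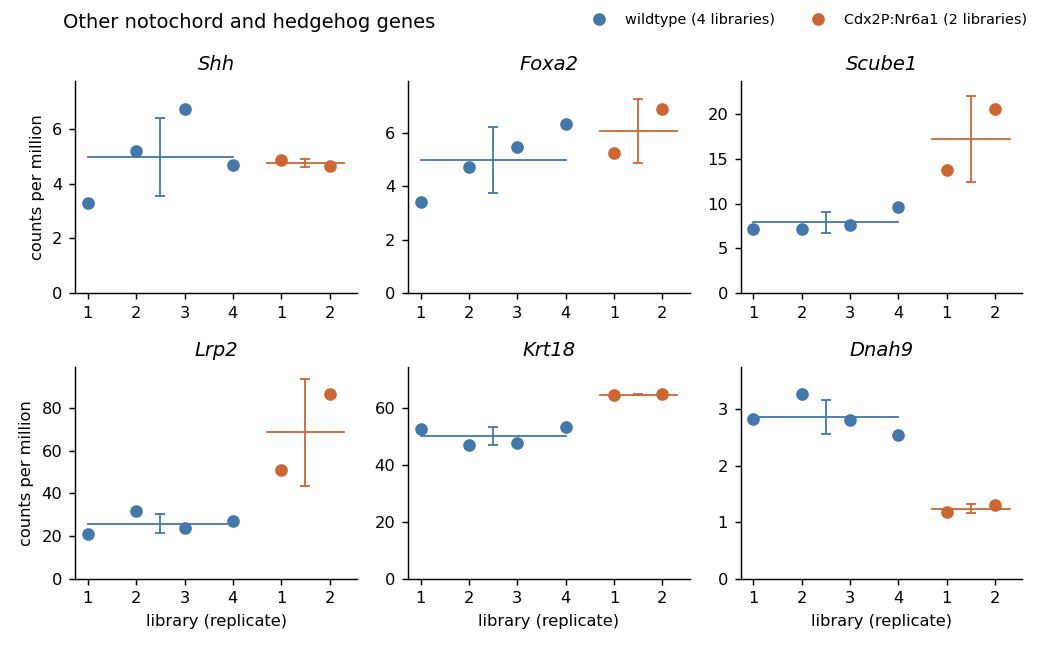
CPM (TMM-scaled) of 6 further genes in each library, wildtype in blue and Cdx2P:Nr6a1 in orange, with group means as lines and SD as bars. Shh and Foxa2 overlap between the groups, Scube1, Lrp2 and Krt18 lie higher in both transgenic libraries, and Dnah9 lies lower in both.

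Downstream of the receptor, fold changes lay in a narrow range. None of the 14 genes of the signal relay was called by edgeR, of which 1 had an unadjusted p under 0.05, and their fold changes lay between -0.13 and 0.09 on the log2 scale with a median of -0.04. That 1 gene was Prkaca, the catalytic subunit of protein kinase A, which holds Gli factors in check (-0.13, unadjusted p = 0.0387 and adjusted p = 0.425 in edgeR). Over the alternative settings Prkaca lay between -0.21 and -0.06 and was not called. The highest of the relay per length was Prkar1a, the regulatory subunit of the same kinase, at 75.0 ± 2.46 CPM per kb in wildtype. Of the 11 genes of the primary cilium, edgeR called 0 and gave 0 with an unadjusted p under 0.05, with fold changes between -0.17 and 0.07. Kif3a, the motor of transport into the cilium, was the highest of these per length at 15.9 ± 0.551 CPM per kb in wildtype and 15.0 ± 0.0909 CPM per kb in Cdx2P:Nr6a1.

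Of the mesoderm genes that answer hedgehog, 3 are given here, and no count over that list is drawn from them. Foxf2, a forkhead factor of ventral mesenchyme, was at 1.75, 1.81, 1.56 and 1.83 CPM in wildtype and at 2.67 and 2.17 CPM in Cdx2P:Nr6a1. Both transgenic libraries lay above all wildtype libraries, and Foxf2 had a log2 fold change of 0.47 (SE 0.18, unadjusted p = 0.0264 and adjusted p = 0.351 in edgeR). Foxf2 passed the filter of 2 CPM through the Cdx2P:Nr6a1 libraries only, so this p is not independent of the filter. The sclerotome factor Pax9 had a log2 fold change of 0.49 (SE 0.34, adjusted p = 0.753). It was at 6.22 and 12.3 CPM in Cdx2P:Nr6a1 replicates 1 and 2 and at 4.32 to 10.1 CPM in wildtype, so only replicate 2 was above the wildtype range. Foxc2, the highest of the 3 per length at 2.00 ± 0.410 CPM per kb in wildtype, had a log2 fold change of 0.25 (adjusted p = 0.778).

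Foxj1 acts on genes of motile cilia, and 7 of the 16 genes of that list were tested, with 0 called higher and 1 called lower. Of the genes below the filter, some had both transgenic libraries above all wildtype libraries and none had both below. The counts of calls hold only for the genes tested. Dnah9, a dynein heavy chain of the outer arm, fell from 2.82, 3.26, 2.80 and 2.55 CPM in wildtype to 1.18 and 1.30 CPM in Cdx2P:Nr6a1 (log2 fold change -1.20, SE 0.18, adjusted p = 0.0156). Dnah9 passed the filter of 2 CPM through the wildtype libraries only, so its call is not independent of the filter. The call was lost without Cdx2P:Nr6a1 replicate 1 (-1.13, adjusted p = 0.124) or replicate 2 (-1.28, adjusted p = 0.087), with 1 transgenic library left in each and a fold change close to that over both. In the other direction, the node dynein Dnah11 (0.62, adjusted p = 0.174), the microtubule protein Tekt1 (0.61, adjusted p = 0.161) and the axonemal assembly factor Ccdc40 (0.27, adjusted p = 0.35) had both transgenic libraries above all wildtype libraries and missed the threshold. With no filter on low counts, edgeR called Dnah11 (adjusted p = 0.00291) and Tekt1 (0.0335) higher, and Ccdc40 was not called. The cilium regulator Rfx3 was the highest of the list per length at 6.45 ± 0.419 CPM per kb in wildtype and 6.33 ± 0.309 CPM per kb in Cdx2P:Nr6a1.

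Chrd and Nog belong to the BMP antagonists, and of the 11 others 6 were tested and edgeR called 0. At an unadjusted p under 0.05 there were 2, both higher, where 5.54% of all genes tested reached that level in that direction. These were Bmper (0.37, adjusted p = 0.298) and Chrdl1 (0.28, adjusted p = 0.323), both with the transgenic libraries above all wildtype libraries, as held for 9.46% of all genes tested. With no filter on low counts, edgeR called Bmper higher (adjusted p = 0.0353) and did not call Chrdl1. Bmper came to 0.15 when Cdx2P:Nr6a1 replicate 1 was left out and to 0.56 when replicate 2 was. The median of the list was 0.18. Fstl1 was the highest per length at 54.0 ± 0.890 CPM per kb in wildtype and 53.9 ± 0.948 CPM per kb in Cdx2P:Nr6a1, and Chrd and Nog at 2.05 and 5.32 CPM per kb in Cdx2P:Nr6a1 stood well below it.

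**Figure D5:**
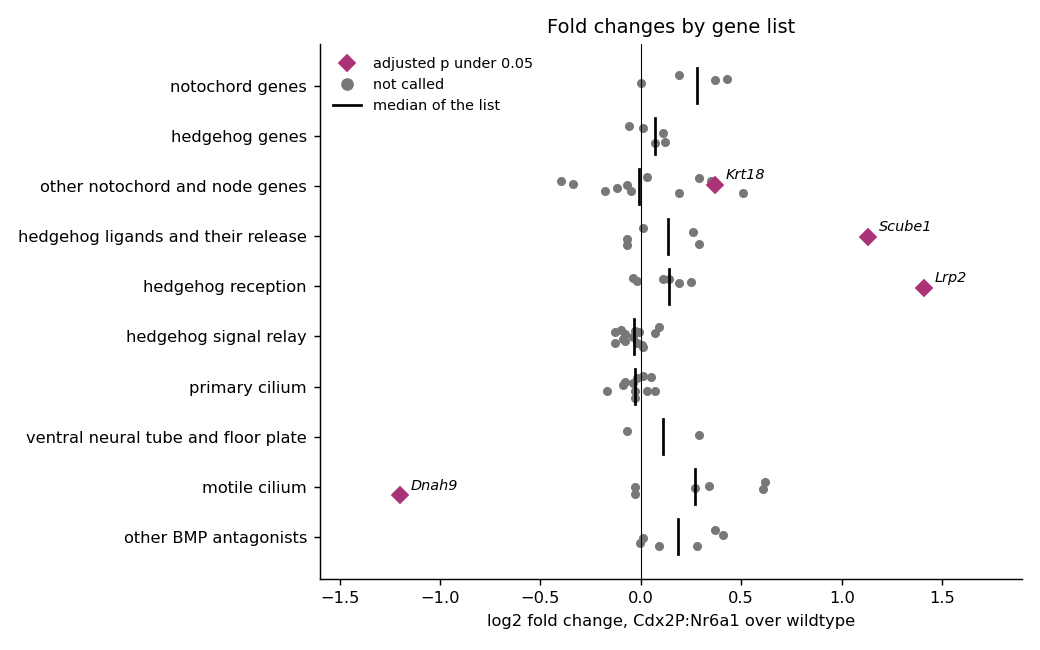
Log2 fold change of Cdx2P:Nr6a1 over wildtype for each tested gene of 10 lists, with 1 point per gene, the list median as a black bar and genes with an adjusted p under 0.05 as diamonds. The called genes are Krt18, Scube1, Lrp2 and Dnah9, none of them among the 4 notochord and 5 hedgehog genes at the top, and the relay and primary cilium genes lie between -0.17 and 0.09.

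The patterns of 4 of the genes over the 6 libraries were compared with those of all genes tested, as Pearson's r of log2 CPM. The points share a library, its depth and its tissue makeup, and with 6 points many genes reach a high value by the number compared alone. Most like Noto were Lmbr1 (r = 0.995, rho = 0.94), Gtf2b (0.989), Sppl2a (0.986), Ube2d3 (0.985) and 1700066M21Rik (0.985), and 52 genes had an r above 0.95. Most like Chrd were Sdsl (r = 0.989, rho = 1.0), AC174678.1 (0.982), Cdkl3 (0.981), Zfp932 (0.972) and Ramp3 (0.970). For Gli1 they were Myl9 (r = 0.994, rho = 0.94), Cnot10 (0.990), Ceacam1 (0.990), Neil2 (0.985) and Prr5 (0.984), and for Ptch1 Adamtsl2 (r = 0.986, rho = 1.0), Nuak2 (0.982), Zfp235 (0.980), Ikbkb (0.978) and Gria4 (0.976). Gli1 and Ptch1 had an r of 0.83 (rho 0.83), Chrd and Nog of 0.89 (rho 0.94), and Noto and Shh of 0.70 (rho 0.71). Without the 2 libraries farthest from the median of the first gene these were 0.90 (0.60 with Ptch1 taken as the first), 0.58 and 0.08, so the likeness of Noto and Shh rests on those libraries.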

How the data were processed

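RNA was sequenced from 6 tailbuds, 4 wildtype and 2 Cdx2P:Nr6a1, grouped by the genotype in their labels. The authors made stranded mRNA libraries, aligned the reads with STAR to mm10 and deposited the raw counts of each gene, not normalized. The counting program is not given in the sources used here. A further deposited table, which holds the authors' own comparison (fold changes, p and FDR with counts and CPM of the genes they called), was not used, and there were 0 columns of other samples. Totals were 44073460 to 67183802.

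The filter of the study (counts over 10 together with CPM over 2, in 2 or more libraries) left 12733 genes, which were normalized by TMM and tested by the quasi-likelihood test of edgeR 4.0.16 (R 4.3.3) without covariates, called at a Benjamini-Hochberg adjusted p under 0.05. P-values measure the spread between embryos. CPM used TMM library sizes, and a level per kb divides CPM by the deposited exon length. Fold changes below 0 mean lower in Cdx2P:Nr6a1. The alternatives, with DESeq2 1.42.0 and limma 3.58.1 (voom) among them, were 15. Python 3.11.15 was used for tables and plots.

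The 10 genes and the gene lists were chosen with earlier results of these data known. Named from the lists were genes called, the gene of each list highest per kb, and genes with both transgenic libraries beyond all wildtype libraries and an unadjusted p under 0.05. For likeness the 5 genes with the highest r are named, over 6 libraries only, since 4 wildtype points are too few. No test of a list as a whole was made. Of the listed genes, 4 are not reported here and are left out of the counts of their lists.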

Additional observations from a re-analysis of the deposited data

Results flagged for a closer look

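Among the 36 genes of this report with values tested for it, 1 had a wildtype library set apart from the other 3. For Gli2, wildtype replicate 3 was at 21.7 CPM and the others between 26.0 and 26.8 CPM, and the gap was 0.845 of the range of the 4 wildtype libraries, above the 95% limit of Dixon's test for 4 values. Chance gives about 1 such gene in 20. The cause was not tested.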

How the results depend on the processing

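The count of called genes among the 10 was 0 under all 15 alternatives, and the lowest adjusted p of any of them was 0.0951. The sign of Noto, which was near 0, turned in the likelihood ratio test (0.00099), with library size only (0.0051), with the replicate block (0.15, adjusted p = 0.714) and on leaving out 1 library, where it ranged from -0.20 to 0.18. With 1 library left out, Smo ranged from -0.03 to 0.05, Gli2 from -0.18 to 0.04 and Shh from -0.23 to 0.11, and Shh was at 0.19 with the replicate block. Under the block Foxa2 was at 0.58 (adjusted p = 0.0958), and calls were gained by 5 of the listed genes reported here, Car3 (-0.51, adjusted p = 0.00109), Scube3 (0.34, 0.0147), Col2a1 (0.00184), Krt8 (0.00478) and Tbx6 (0.0372). The median of the notochord genes ranged from 0.10 to 0.43 and that of the hedgehog genes from 0.04 to 0.08 with 1 library left out. Replicate numbers are shared between the genotypes by label only, and the labels give no pairing. The deviations of same-numbered libraries from their group means correlated at 0.317 and -0.283. With 2 transgenic libraries their deviations mirror each other, so these values cannot decide on pairing. The replicate block called 442 genes of all tested, against 203 without it, and none of the 9 genes. Under the block, wildtype replicates 3 and 4 have no same-numbered transgenic library and add nothing to the genotype estimate. That estimate, with the calls gained, rests on 2 libraries per group. Over all genes, 876 were called without the filter, 477 by DESeq2, 401 by the likelihood ratio test and 61 without either Cdx2P:Nr6a1 library. With only 2 transgenic embryos, a small change of the notochord genes could not be told from the spread between embryos. A lone transgenic library was assumed to vary like the others.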
